A study of Mus musculus with 24 samples.

Results

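MPP2 cells of vehicle-treated mice were compared with CD48-negative stem and progenitor cells from the same treatment arm. The comparison uses 6 of the 24 libraries of the series: 2 MPP2 Sham libraries against 2 HSC Sham and 2 MPP1 Sham libraries, each cell type having a sample labelled 2_3 and a sample labelled 4. All came from C57BL/6 mice of 8 to 12 weeks with a floxed Mysm1 gene that received corn oil without tamoxifen (labelled Mysm1-WT). Whether the Sham mice carried the CreERT2 transgene is not given in the sources used here. Bone marrow of males and females was pooled, red cells were lysed, and lineage-negative cells positive for cKit, Sca1 and CD150 and negative for Flt3 were sorted. Within that gate, CD34-CD48- cells were taken as haematopoietic stem cells (HSC), CD34+CD48- cells as multipotent progenitors 1 (MPP1) and CD34+CD48+ cells as multipotent progenitors 2 (MPP2). The series also holds these 3 cell types from tamoxifen-treated Mysm1 +/fl CreERT2 mice (Het) and tamoxifen-treated Mysm1 fl/fl CreERT2 mice (KO), with 3 libraries per cell type and genotype. RNA was depleted of ribosomal RNA and sequenced as paired 50-base reads. Each library pools several mice, and the 2 samples of a Sham group are described as independent, so the tests weigh differences against the scatter of pools and not of single animals.

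Haematopoietic stem cells are the source of all blood lineages and are mostly quiescent. Multipotent progenitors are their early descendants and divide more often, and MPP2 is a CD150-positive class known for a bias towards the megakaryocyte and erythroid lineages. CD48 is a receptor of the SLAM family that is absent from the most primitive cells. The samples therefore show which transcripts differ between MPP2 and CD48-negative cells in mice whose Mysm1 was not deleted. HSC differ from MPP2 in CD34 as well as CD48, so the main contrast mixes the gates. Only the comparison with MPP1 differs by the CD48 gate alone.

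Mysm1 is the gene deleted in the KO arm (mm9 chr4:94608731-94645791). Its Sham levels are given as a description, and without Het and KO levels beside them they cannot check the labels. Mysm1 read 114 and 121 CPM in HSC, 119.7 and 119 in MPP1, and 108 and 109.5 in MPP2, with sample 2_3 given before sample 4 here and throughout. CPM are edgeR's depth-scaled counts, with library sizes adjusted by the trimmed mean of M-values. All 6 libraries carried the transcript at similar levels (log2 -0.12 ± 0.15, adjusted p = 0.605; the error is the standard error of the fitted change).

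Cd48, the gene of the gate (mm9 chr1:173612140-173635389), read 1.61 and 0 CPM in HSC, 1.31 and 0.59 in MPP1, and 30.6 and 18.6 in MPP2. The cells were sorted on that protein, so this value describes the sort and is not a result. Ly6a, which encodes Sca1, read 22.8 and 18.4 CPM in HSC, 16.6 and 12.6 in MPP1, and 0.825 and 1.57 in MPP2. Every cell was gated as Sca1-positive, yet both MPP2 libraries were far below the other 4 (log2 -3.86 ± 0.51, adjusted p = 4.84e-06). The same contrast was also negative in Het (log2 -2.63) and KO (log2 -1.58). Ly6a has close relatives at its locus, so its reads are uncertain, and the reason for the gap between gate and transcript was not tested. Kit, the stem cell factor receptor, was slightly lower, at 608 and 576 CPM in MPP2 against 796 to 989 in the CD48-negative libraries (log2 -0.52 ± 0.15, adjusted p = 0.00887). Cd34, which parts HSC from MPP1 in the sort, read 82.8 and 94.4 CPM in HSC, 149.8 and 119 in MPP1, and 51.5 and 104 in MPP2 and overlapped between the groups. Slamf1, the gene of CD150, and Flt3 did not pass (adjusted p = 0.257 and 0.174).

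The Sham libraries held 23123989 to 41137208 counts and detected 17721 to 20426 genes. The summed level of 12 neutrophil markers was 1171 CPM in MPP1 sample 2_3 and 258 CPM in HSC sample 2_3, against 35.7 to 173 CPM in the other 4 libraries. None of those 12 genes passed, and all overlapped between the groups. Summed over their lists, 11 B cell markers gave 15.3 to 27.3 CPM in MPP2 and 46.1 to 55.4 in CD48-negative libraries, 12 T and NK cell markers 29.96 to 42.9 and 36.4 to 53.9, and 12 macrophage markers 29.4 to 40.8 and 39.0 to 47.2. The 13 stroma and endothelium markers gave 64.1 to 69.6 CPM in MPP2 and 88.2 to 111 in CD48-negative libraries. In bulk samples, fewer cells of a type and less RNA per cell cannot be told apart.

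Of 21456 genes tested, 4943 passed an adjusted p under 0.05 in edgeR's quasi-likelihood test, 3148 higher in MPP2 and 1795 lower. That is 23% of all genes, 14.7% higher and 8.37% lower, and each gene list below is read against these shares. Both MPP2 libraries lay above all 4 CD48-negative libraries for 21.7% of genes and below all 4 for 26.1%. The direction went with the level of the gene. Of genes under 1 CPM, 0.07% were higher and 0.43% lower. From 20 to 100 CPM these shares were 31.11% and 12.83%, and at 100 CPM or more 50.23% and 6.99%. The median log2 change was -1.73 for genes under 1 CPM, -1.32 from 1 to 5 CPM, -0.25 from 5 to 20, 0.22 from 20 to 100 and 0.44 at 100 CPM or more, and -0.39 over all genes.

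**Figure D1:**
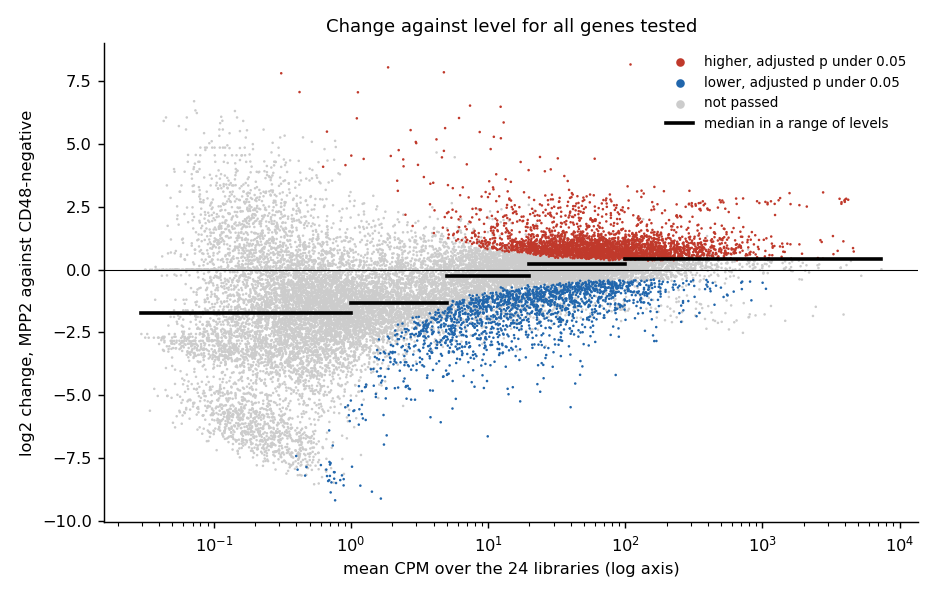
Log2 change of every gene tested, MPP2 Sham against the mean of HSC Sham and MPP1 Sham (vertical axis), by mean CPM over the 24 libraries (horizontal log axis), with genes that passed coloured by direction and bars for the median of each range of levels. The medians climb from -1.73 under 1 CPM to 0.44 at 100 CPM or more.

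The balance of higher and lower genes moved with the scaling and the tool. With edgeR's RLE scaling, 2933 genes were higher and 1913 lower. With scaling factors from genes of at least 20 CPM only, an alternative chosen after seeing the data, 1905 genes were higher and 2626 lower, and the median over all genes moved from -0.39 to -0.67. DESeq2, which differs in test as well as scaling, called 3154 higher and 3072 lower. Without MPP2 sample 2_3, 2240 genes passed (1571 higher, 669 lower), with the remaining MPP2 library assumed to vary like the other groups.

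Among genes that passed without overlap and reached 5 CPM in the higher group, the largest rise was that of Car1, a carbonic anhydrase of early red cell precursors (mm9 chr3:14766217-14778459), which read 1.61 and 0 CPM in HSC, 5.04 and 1.34 in MPP1, and 647 and 286 in MPP2. Both MPP2 libraries stood far above the other 4, and sample 2_3 was the higher (log2 8.18 ± 1.41, adjusted p = 0.000462). Kel, the Kell blood group protein, was at 60.8 and 32.4 CPM in MPP2 against 0.892 to 1.61 in the CD48-negative libraries (log2 5.24 ± 0.77, adjusted p = 9.36e-05). Pklr, which encodes the pyruvate kinase of red cells and liver, was at 76.4 and 31.8 CPM in MPP2 against 0 to 1.53 in the CD48-negative libraries. Tspo2, a membrane protein of erythroblasts, was at 24.8 and 11.1 CPM in MPP2 against 0 to 0.948 in the CD48-negative libraries. Rhd, the Rhesus blood group protein, read 0 and 0 CPM in HSC, 1.504 and 1.61 in MPP1, and 26.6 and 10.1 in MPP2, and against MPP1 alone it did not pass (adjusted p = 0.196). The rest of the 10 largest rises were those of Prss50, St8sia6, Sphk1, Atp1b2 and Il31ra, with log2 changes from 5.19 to 8.06. Against MPP1 alone, Tspo2, St8sia6 and Sphk1 did not pass either (adjusted p = 0.137, 0.11 and 0.0975).

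The largest fall by the same conditions was that of Plk2, a polo-like kinase (mm9 chr13:111185252-111191052), which read 25.4 and 22.9 CPM in HSC, 16.4 and 15.1 in MPP1, and 0 and 0.412 in MPP2. The transcript was listed at 0 in MPP2 sample 2_3 and near 0 in sample 4 (log2 -6.64 ± 1.01, adjusted p = 8.86e-05). Procr, the endothelial protein C receptor used to mark stem cells (mm9 chr2:155576853-155581207), read 66.1 and 73.01 CPM in HSC, 60.5 and 46.7 in MPP1, and 0.972 and 1.798 in MPP2. Both HSC libraries were above both MPP1 libraries, and the 2 MPP2 libraries were far below all 4 (log2 -5.48 ± 0.64, adjusted p = 1.23e-05). Sult1a1, a sulfotransferase, was at 1.21 and 1.05 CPM in MPP2 against 28.1 to 62.2 in the CD48-negative libraries. Efna1, an ephrin ligand, was at 0.118 and 0.112 CPM in MPP2 against 6.15 to 8.85 in the CD48-negative libraries, and Cyp26b1, which degrades retinoic acid, was at 0.442 and 0.0749 CPM in MPP2 against 7.42 to 20.3 in the CD48-negative libraries. Ndnf, Wfdc2, Panx2, Clip3 and Smtnl1 made up the 10, with log2 changes from -6.08 to -4.96. Of the 10, only Cyp26b1 did not pass against MPP1 alone (adjusted p = 0.061).

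Lists for each phase of cell division had medians above 0 in MPP2, and in mitosis every member rose. All 63 G2 and mitosis genes tested rose, with a median log2 change of 2.37 and a range from 0.98 for Hjurp to 3.53 for Cenpa. Of 49 DNA replication genes, 44 rose and 0 fell (median 1.49), and of 55 replication-dependent histone genes, 52 rose and 0 fell (median 2.65). Of 20 genes of G1 control, 13 rose and 3 fell (median 1.02; 1 fell without MPP2 sample 2_3). These counts stand against the 14.7% of all genes that were higher. By level, 31.11% of genes from 20 to 100 CPM were higher, and 50.23% at 100 CPM or more. The mitosis, replication and G1 lists had median levels of 68.7, 89.43 and 45.25 CPM, and the histone list 519.9 CPM. Fewer members passed against MPP1 alone, the CD48-negative group that shares CD34 with MPP2. There 37 mitosis, 29 replication, 47 histone and 6 G1 genes were higher and 3 G1 genes lower, against 9.08% of all genes higher. The medians against MPP1 were 1.55, 1.02, 1.91 and 0.78.

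Cenpa, the histone variant that marks centromeres (mm9 chr5:30969150-30977200), read 4.12 and 5.71 CPM in HSC, 12.6 and 11.5 in MPP1, and 102 and 76.7 in MPP2. The cell types formed 3 steps without overlap, with MPP2 the highest (log2 3.53 ± 0.34, adjusted p = 5.5e-07). Incenp, a scaffold of the chromosomal passenger complex, read 34.3 and 47.1 CPM in HSC, 115 and 145 in MPP1, and 365 and 382 in MPP2. Ndc80, which ties kinetochores to microtubules, read 12.98 and 17.3 CPM in HSC, 47.3 and 48.4 in MPP1, and 131 and 118 in MPP2. Both followed the same 3 steps (log2 2.36 ± 0.26, adjusted p = 1.78e-06 for Incenp and log2 2.21 ± 0.26, adjusted p = 2.28e-06 for Ndc80). Cdca2, which helps reshape chromatin at the end of mitosis, was at 111 and 114 CPM in MPP2 against 18.1 to 38.4 in the CD48-negative libraries. Genes beyond the naming rule are named here and below for their known roles, after their values were seen. Plk1, the mitotic kinase related to Plk2, read 3.61 and 3.96 CPM in HSC, 16.7 and 25.5 in MPP1, and 77.2 and 70.95 in MPP2, so it rose while Plk2 fell (log2 3.05 ± 0.49, adjusted p = 0.00023). Aurkb, the kinase of the chromosomal passenger complex, was at 83.8 and 85.2 CPM in MPP2 against 4.82 to 22.6 in the CD48-negative libraries.

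Promoters of mitosis genes are shown because the genes rose together. Those printed were chosen by size of change among risers that hold both motifs given next, so they are not typical members. Mitotic promoters are known for a cell cycle homology region (CHR, TTTGAA) often paired with CCAAT boxes. Sequences are from RefSeq (GRCm38.p6), from 150 bases before to 30 after the gene start, 5′ to 3′ on the gene's strand, with CHR and CCAAT matches on either strand in capitals.
Cenpa (chr5:30666736-30666915, plus strand): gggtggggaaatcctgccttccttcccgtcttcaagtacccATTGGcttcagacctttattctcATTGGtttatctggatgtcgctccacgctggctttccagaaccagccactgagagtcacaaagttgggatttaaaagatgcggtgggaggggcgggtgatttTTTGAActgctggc
Ect2 (chr3:27153849-27154028, minus strand): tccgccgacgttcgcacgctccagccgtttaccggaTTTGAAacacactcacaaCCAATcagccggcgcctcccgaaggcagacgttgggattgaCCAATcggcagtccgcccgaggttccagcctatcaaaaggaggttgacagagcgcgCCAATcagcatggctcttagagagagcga
Kif22 (chr7:127042391-127042570, minus strand): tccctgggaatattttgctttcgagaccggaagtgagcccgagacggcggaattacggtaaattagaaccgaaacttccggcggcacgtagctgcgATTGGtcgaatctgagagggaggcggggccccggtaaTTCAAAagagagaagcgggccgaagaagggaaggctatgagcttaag
Of the 63 mitosis genes, 49 matched a RefSeq promoter. TTTGAA was found for 34 of the 49 (69.39%), against 20.23% of 27025 genes, and CCAAT for 37 (75.51%), against 41.06%. Both motifs were found for 29 (59.18%), against 7.97% of all genes. These shares, and those of the other motifs below, were counted over a longer window than the one printed. A gene counted when any of its promoters matched. A match describes the letters only.

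Among replication genes, Clspn, an adaptor of the replication checkpoint (mm9 chr4:126234179-126271147), read 33.3 and 33.95 CPM in HSC, 108 and 124 in MPP1, and 247 and 248 in MPP2. HSC, MPP1 and MPP2 were again 3 separate steps (log2 1.99 ± 0.23, adjusted p = 1.62e-06). Chaf1a, a histone chaperone at the fork, was at 253 and 252 CPM in MPP2 against 53.8 to 119.9 in the CD48-negative libraries (log2 1.55 ± 0.18, adjusted p = 5.57e-07), and Fen1, the flap endonuclease, at 252 and 225 CPM in MPP2 against 36.3 to 92.3 in the CD48-negative libraries (log2 1.98 ± 0.22, adjusted p = 9.15e-07). Tyms, thymidylate synthase, went the other way, at 265 and 312 CPM in MPP2 against 638 to 933 in the CD48-negative libraries, without passing (log2 -1.42 ± 0.68, adjusted p = 0.159). Chaf1b, Rfc3, Pola2 and Ung did not pass either.

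E2F sites, written as TTTCGCGC and as TTTGGCGC, were searched on both strands of the replication gene promoters. Either form was found for 13 of 39 matched genes (33.33%), against 0.93% of all genes. The 2 shown were chosen among risers with a match in the printed window, and each holds 1 match, in capitals.
Clspn (chr4:126556830-126557009, plus strand): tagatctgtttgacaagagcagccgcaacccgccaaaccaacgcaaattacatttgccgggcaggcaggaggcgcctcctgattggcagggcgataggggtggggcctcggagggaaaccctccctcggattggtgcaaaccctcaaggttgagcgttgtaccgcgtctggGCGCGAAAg
Pole2 (chr12:69228161-69228340, minus strand): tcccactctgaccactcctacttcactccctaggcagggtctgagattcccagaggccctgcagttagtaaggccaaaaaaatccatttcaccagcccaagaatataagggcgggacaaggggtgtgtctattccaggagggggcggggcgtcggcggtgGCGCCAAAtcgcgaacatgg

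The histone genes, whose transcripts accumulate in S phase, took a large part of the reads. They made up 1.22% and 1.66% of all counts in HSC, 3.88% and 3.43% in MPP1, and 10.0% and 12.0% in MPP2. The libraries keep RNA without a poly(A) tail, as these transcripts have none. Hist1h2ak, an H2A gene (mm9 chr13:21845264-21845776), read 348 and 552 CPM in HSC, 1561 and 1171 in MPP1, and 5855 and 7405 in MPP2. MPP2 was highest and HSC lowest without overlap (log2 3.08 ± 0.39, adjusted p = 2.63e-05). The linker histone genes rose less, Hist1h1c by a log2 change of 1.64, Hist1h1e by 1.66 and Hist1h1d by 2.07. Histone genes are near-identical copies, so reads of single members are uncertain.

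G1 control was mixed. Cdk6, a kinase of early G1, read 77.6 and 68.5 CPM in HSC, 117 and 113 in MPP1, and 382 and 339.5 in MPP2 and was highest in MPP2 (log2 1.98 ± 0.36, adjusted p = 0.000622). E2f8, a late E2F repressor, rose by 2.47 on the log2 scale, Tfdp1, the E2F partner, by 1.24, and Cdc25a, a phosphatase that activates CDK2, by 1.35. Mycn, a MYC family factor, fell, at 55.7 and 97.4 CPM in MPP2 against 157 to 225 in the CD48-negative libraries (log2 -1.31 ± 0.20, adjusted p = 1.75e-05). Ccnd1 and Ccnd2, both D-type cyclins, also fell (log2 -1.25 and -0.65). Myc, Mycl1, Ccnd3 and Skp2 did not pass.

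**Figure D2:**
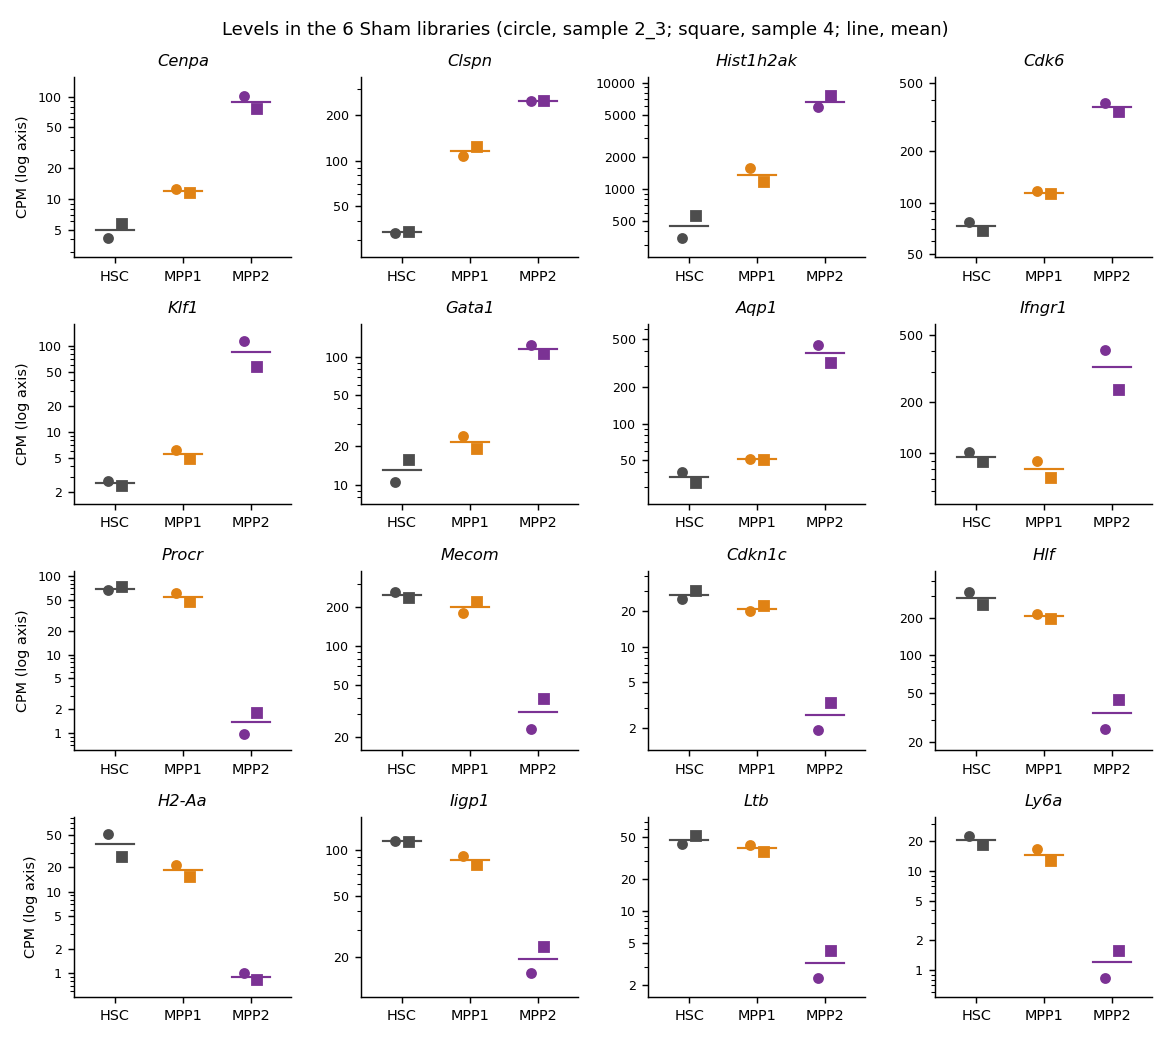
CPM of single genes in each of the 6 Sham libraries (vertical log axes; circles, sample 2_3; squares, sample 4; lines, means). Division and red cell genes are highest in MPP2, and the stem cell genes and H2-Aa are lowest there.

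Genes for protein synthesis and respiration were also higher. The translation factor and tRNA synthetase lists had median levels of 151.1 and 132.8 CPM. At 100 CPM or more, 50.23% of all genes were higher, and 31.11% from 20 to 100 CPM. Of 49 ribosome biogenesis genes, 47 rose and 0 fell (median log2 change 1.01), and all 20 cytosolic tRNA synthetase genes rose (median 1.03). Of 75 nuclear genes of oxidative phosphorylation 66 rose (median 0.91), and of 75 mitochondrial ribosomal protein genes 51 rose (median 0.78), with 0 falling in either list. Of 56 translation factor genes, 31 rose and 2 fell (median 0.67; 0 fell without MPP2 sample 2_3, and 1 without MPP2 sample 4, HSC sample 2_3 or MPP1 sample 2_3).

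Rrp12, which exports ribosome precursors, read 44.4 and 38.2 CPM in HSC, 48.4 and 49.8 in MPP1, and 125 and 109 in MPP2. Both MPP2 libraries were above the other 4 (log2 1.38 ± 0.16, adjusted p = 5.13e-07). Atp5b, a catalytic subunit of ATP synthase, read 609.8 and 751 CPM in HSC, 807 and 825 in MPP1, and 2005 and 1721 in MPP2 (log2 1.32 ± 0.16, adjusted p = 6.74e-07). Cox6c, a subunit of cytochrome c oxidase, was at 293 and 275 CPM in MPP2 against 85.7 to 124 in the CD48-negative libraries. Hars, the histidyl-tRNA synthetase, was at 155 and 114 CPM in MPP2 against 42.2 to 63.8 in the CD48-negative libraries, Mrps22, of the small mitochondrial ribosome subunit, at 90.3 and 68.96 CPM in MPP2 against 23.2 to 37.3 in the CD48-negative libraries, and Eif3b, an initiation factor, at 583 and 517 CPM in MPP2 against 163 to 284 in the CD48-negative libraries. In each, both MPP2 libraries were above all 4 others. Without MPP2 sample 2_3, 20 mitochondrial ribosomal genes, 38 oxidative phosphorylation genes and 33 ribosome biogenesis genes passed, all upward.

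Of the 77 cytosolic ribosomal protein genes, 15 rose and 0 fell (median log2 change 0.22). That is not far from the 14.7% of all genes but below genes of like level. The list had a median level of 713.8 CPM, and at 100 CPM or more 50.23% of genes were higher (median 0.44). Their share of all counts was 7.83% and 7.23% in MPP2 and 7.24% to 10.9% in CD48-negative libraries. Rpl27 of the large subunit had the smallest adjusted p, at 349 and 336 CPM in MPP2 against 135 to 188 in the CD48-negative libraries (log2 0.99 ± 0.15, adjusted p = 1.98e-05). With scaling on genes of at least 20 CPM the median turned to -0.06, with 2 genes higher and 6 lower. Without MPP2 sample 2_3 3 rose, without MPP1 sample 4 7 and without HSC sample 2_3 8.

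Glycolysis genes went both ways. Of 25, 5 rose and 7 fell (median 0.09; -0.19 with scaling on genes of at least 20 CPM), and without MPP2 sample 2_3, 3 rose and 2 fell. Slc16a1, a lactate transporter, rose, at 271 and 172 CPM in MPP2 against 48.4 to 85.6 in the CD48-negative libraries (log2 1.80 ± 0.19, adjusted p = 1.16e-07), and Hk1, a hexokinase, rose by 0.94 on the log2 scale. Aldoc, an aldolase isoform, fell, at 2.09 and 5.73 CPM in MPP2 against 17.7 to 30.4 in the CD48-negative libraries (log2 -2.48 ± 0.46, adjusted p = 0.000155). Of the lactate dehydrogenase subunits, Ldha rose (log2 0.90) and Ldhb fell (log2 -2.50).

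Of 33 erythroid genes tested, 21 rose and 0 fell, with a median log2 change of 2.01. Their median level was 30.03 CPM, and from 20 to 100 CPM 31.11% of all genes were higher. Klf1, a transcription factor of red cell genes (mm9 chr8:87425827-87429194), read 2.74 and 2.35 CPM in HSC, 6.25 and 4.92 in MPP1, and 113 and 57.2 in MPP2. Gata1, the regulator of the erythroid and megakaryocyte lineages (mm9 chrX:7536386-7555197), read 10.5 and 15.5 CPM in HSC, 24.1 and 18.96 in MPP1, and 123 and 106 in MPP2. Both were above all CD48-negative libraries in both MPP2 libraries (log2 4.49 ± 0.73, adjusted p = 0.000255 for Klf1 and log2 2.78 ± 0.44, adjusted p = 0.000219 for Gata1). Tfrc, the transferrin receptor, was at 470.2 and 141 CPM in MPP2 against 20.4 to 37.7 in the CD48-negative libraries, and the haem synthesis genes Cpox and Alad rose by 1.75 and 1.25 on the log2 scale. Epor, the erythropoietin receptor, was higher without passing (log2 2.32 ± 0.88, adjusted p = 0.0706). In the list of late erythroid markers, which shares members with this one, 4 of 6 tested rose and 0 fell (median 1.81). Rhd and Hemgn were among those that passed, and Alas2 and Slc4a1 overlapped between the groups. Its 4 globin genes were listed at 0 in all 6 libraries, and whether this reflects absent transcript or the counting was not tested. The summed level of the late erythroid markers tested was 163 to 213 CPM in MPP2 and 55.7 to 89.0 in CD48-negative libraries. The part of late red cell precursors in the result was not tested.

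Of 30 megakaryocyte genes (median level 46.9 CPM), 6 rose and 3 fell (median 0.83), against 31.11% higher among all genes from 20 to 100 CPM. Without MPP2 sample 4, 2 rose (median 0.48), without MPP2 sample 2_3 or HSC sample 2_3 1 fell, and fitted on the Sham libraries alone 16 rose. Pf4, platelet factor 4, was at 205 and 401 CPM in MPP2 against 34 to 126 in the CD48-negative libraries (log2 2.09 ± 0.61, adjusted p = 0.0198), and Gp5, a platelet glycoprotein, at 31.4 and 40.1 CPM in MPP2 against 9.58 to 15.96 in the CD48-negative libraries (log2 1.52 ± 0.32, adjusted p = 0.000808). Itga2b, integrin alpha IIb, was above all CD48-negative libraries without passing (log2 1.34 ± 0.47, adjusted p = 0.0507), and Vwf, von Willebrand factor, overlapped (log2 0.07 ± 0.46, adjusted p = 0.96).

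Of 18 mast cell, basophil and eosinophil genes, 4 rose and 1 fell (2 rose without any 1 of MPP2 sample 2_3, MPP2 sample 4 or MPP1 sample 4, and 0 fell without MPP2 sample 2_3; 8 of 17 rose in the Sham libraries alone). Il1rl1, the interleukin 33 receptor, was at 106 and 57.6 CPM in MPP2 against 3.61 to 8.81 in the CD48-negative libraries (log2 3.97 ± 0.67, adjusted p = 0.00034), and Cpa3, the mast cell carboxypeptidase, at 7.51 and 9.102 CPM in MPP2 against 0.236 to 1.27 in the CD48-negative libraries. The mast cell, basophil and eosinophil list had a median level of 2.06 CPM, and from 1 to 5 CPM 0.95% of all genes were higher and 8.19% lower. Of 30 granulocyte and monocyte genes, 1 rose and 5 fell, at a median level of 13.58 CPM. From 5 to 20 CPM, 9.56% of all genes were higher and 19.15% lower, so these falls do not stand out. Plac8 was the riser, at 105 and 60.3 CPM in MPP2 against 2.91 to 8.7 in the CD48-negative libraries (log2 3.73 ± 0.51, adjusted p = 5.74e-05). Mpo, myeloperoxidase, read 44.9 and 0.06605 CPM in HSC, 71.8 and 1.101 in MPP1, and 108 and 124 in MPP2 and did not pass (log2 2.01 ± 1.48, adjusted p = 0.369). Its CD48-negative values were high in both 2_3 samples, which also had the higher neutrophil marker sums, and their part in this result was not tested. Without MPP1 sample 2_3, 3 granulocyte and monocyte genes rose and 1 fell, without HSC sample 2_3, 2 rose and 2 fell, without MPP2 sample 2_3, 1 rose and 0 fell, and without MPP2 sample 4, 1 fell.

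Of 30 lymphoid priming genes, 2 rose and 8 fell, with a median log2 change of -1.09 (without MPP2 sample 2_3, 1 rose and 4 fell). Gata3, a T lineage factor, was at 1.12 and 1.87 CPM in MPP2 against 10.5 to 20.1 in the CD48-negative libraries (log2 -3.19 ± 0.40, adjusted p = 1.36e-06), Ltb, lymphotoxin beta, at 2.36 and 4.195 CPM in MPP2 against 35.99 to 50.9 in the CD48-negative libraries (log2 -3.72 ± 0.64, adjusted p = 0.000383), and Cd27, a TNF receptor, at 31.8 and 51.1 CPM in MPP2 against 104 to 138 in the CD48-negative libraries (log2 -1.59 ± 0.27, adjusted p = 0.000108). All 3 were below every CD48-negative library in both MPP2 libraries. The list had a median level of 4.97 CPM. All genes from 1 to 5 CPM had a median change of -1.32, so the list median was not lower than theirs. Ikzf1, the Ikaros factor, rose, at 306 and 182 CPM in MPP2 against 119.5 to 139.9 in the CD48-negative libraries (log2 0.93 ± 0.18, adjusted p = 0.000312).

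**Figure D3:**
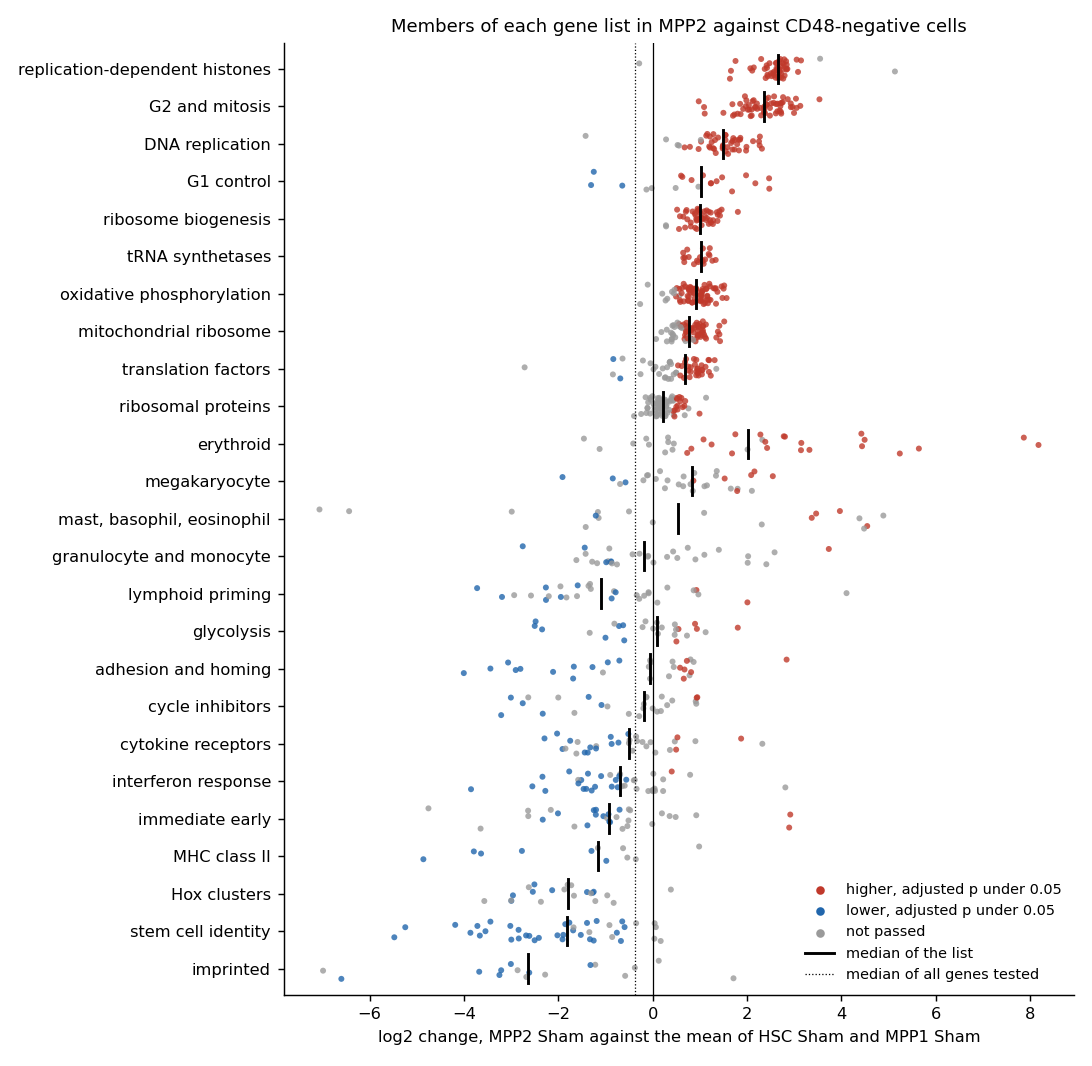
Log2 change of the members of each gene list, MPP2 Sham against CD48-negative Sham, with the list median marked and members that passed coloured by direction. Histone, mitosis and erythroid lists have the highest medians (2.65, 2.37 and 2.01), and imprinted, stem cell and Hox lists the lowest (-2.65, -1.81 and -1.80).

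Genes that mark stem cells were lower in MPP2. Of 40, 31 fell and 0 rose (median log2 change -1.81), against 8.37% of all genes lower. Below all CD48-negative libraries were 35, against 26.1% of all genes. Mecom, a transcription factor needed for stem cell maintenance (mm9 chr3:29850221-30446930), read 261 and 236 CPM in HSC, 179 and 219.5 in MPP1, and 23.03 and 39.2 in MPP2. Both HSC libraries were above both MPP1 libraries, and MPP2 was far below all 4 (log2 -2.84 ± 0.30, adjusted p = 9.15e-07). Hlf, a stem cell transcription factor, read 329 and 258 CPM in HSC, 217 and 198 in MPP1, and 25.2 and 43.6 in MPP2 (log2 -2.84 ± 0.34, adjusted p = 6.2e-06). Fgd5, a gene used to report stem cells, read 115 and 90.9 CPM in HSC, 83 and 73.1 in MPP1, and 3.42 and 6.48 in MPP2 (log2 -4.19 ± 0.48, adjusted p = 7.71e-06). Prdm16, a chromatin regulator, was at 10.4 and 16.7 CPM in MPP2 against 62.8 to 88.8 in the CD48-negative libraries, and Tgm2, a transglutaminase, at 32.2 and 53.3 CPM in MPP2 against 228 to 312 in the CD48-negative libraries. Meis1, a homeobox factor, fell by less (log2 -0.60 ± 0.16, adjusted p = 0.00738), and Tek, Gata2, Vwf and Clca1 were among the 9 that did not pass. Without MPP2 sample 2_3, 22 of the 40 fell.

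Of 21 Hox genes, 8 fell and 0 rose. Their median was -1.80 at a median level of 2.17 CPM, against -1.32 for all genes from 1 to 5 CPM. Hoxa10 was at 2.798 and 8.28 CPM in MPP2 against 20.01 to 29.6 in the CD48-negative libraries (log2 -2.13 ± 0.41, adjusted p = 0.000214), Hoxb3 at 1.38 and 3.03 CPM in MPP2 against 7.71 to 16.3 in the CD48-negative libraries (log2 -2.54 ± 0.43, adjusted p = 4.97e-05), and both are homeobox factors of blood progenitors. Of 16 imprinted genes tied to quiescence, 7 fell and 0 rose (median -2.65; 3 fell without MPP2 sample 2_3). The imprinted list had a median level of 3.04 CPM, and all genes from 1 to 5 CPM had a median of -1.32, with 8.19% lower. Cdkn1c, the imprinted inhibitor of cyclin-dependent kinases (mm9 chr7:150644255-150646955), read 25.6 and 29.9 CPM in HSC, 19.98 and 22.3 in MPP1, and 1.94 and 3.296 in MPP2. It was the strongest fall among 26 cell cycle inhibitors and quiescence regulators (log2 -3.21 ± 0.58, adjusted p = 0.000274), of which 6 fell and 2 rose (3 fell and 1 rose without MPP2 sample 2_3; 4 rose without MPP1 sample 2_3 and 1 without MPP1 sample 4). H19, a long non-coding RNA, was at 2.31 to 5.15 CPM in CD48-negative libraries and rested on 2 counts in MPP2. Meg3, another imprinted non-coding RNA, was at 1.03 and 1.54 CPM in MPP2 against 7.89 to 15.7 in the CD48-negative libraries (log2 -3.25 ± 0.79, adjusted p = 0.00362). Txnip fell (log2 -1.09 ± 0.18, adjusted p = 3.25e-05) and Foxo1 fell (log2 -1.36 ± 0.32, adjusted p = 0.00176), both regulators of quiescence and stress, but Foxo3, Cdkn1a and Cdkn1b did not pass. The pocket protein genes Rb1 and Rbl1 rose (log2 0.93 and 0.95).

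Adhesion genes went both ways. Of 28, 11 fell and 6 rose (median -0.06). Their median level was 40.2 CPM, and from 20 to 100 CPM 12.83% of all genes were lower and 31.11% higher. Of the fallers, Jam3, a junction adhesion molecule, was at 0.825 and 0.824 CPM in MPP2 against 11.8 to 16.2 in the CD48-negative libraries (log2 -4.00 ± 0.60, adjusted p = 1.35e-05), Robo4, a guidance receptor of endothelium, at 1.797 and 3.71 CPM in MPP2 against 25.5 to 38.4 in the CD48-negative libraries (log2 -3.44 ± 0.43, adjusted p = 1.53e-06) and Esam, an endothelial adhesion molecule, at 10.3 and 22.5 CPM in MPP2 against 43.5 to 65.8 in the CD48-negative libraries (log2 -1.69 ± 0.25, adjusted p = 1.07e-05). The risers included the leukocyte integrin subunits Itgal, at 22.1 and 27.5 CPM in MPP2 against 2.31 to 6.18 in the CD48-negative libraries (log2 2.84 ± 0.33, adjusted p = 5.57e-07), Itgb2 (log2 0.72) and Itga4 (log2 0.81). With scaling on genes of at least 20 CPM, 1 rose and 11 fell. Cxcr4, the marrow homing receptor, overlapped (log2 -0.06 ± 0.24, adjusted p = 0.906).

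Of 32 cytokine and growth factor receptors, 12 fell and 3 rose (5 fell and 1 rose without MPP2 sample 2_3, and 1 rose without HSC sample 4 or either MPP1 sample). Il21r, the interleukin 21 receptor, was at 20.7 and 35.9 CPM in MPP2 against 84.3 to 106 in the CD48-negative libraries (log2 -1.75 ± 0.28, adjusted p = 5.62e-05), and Bmpr2, a BMP receptor, at 24.5 and 27.8 CPM in MPP2 against 56.8 to 76.4 in the CD48-negative libraries (log2 -1.38 ± 0.19, adjusted p = 6.12e-06). Ghr, the growth hormone receptor, was at 3.74 and 3.596 CPM in MPP2 against 13.1 to 17.8 in the CD48-negative libraries (log2 -2.03 ± 0.42, adjusted p = 0.000501). Ifngr1, the ligand-binding chain of the interferon gamma receptor, went the other way and read 102 and 88.5 CPM in HSC, 89.6 and 71.4 in MPP1, and 407 and 234 in MPP2. Both MPP2 libraries were above the other 4 (log2 1.87 ± 0.19, adjusted p = 6.24e-08). The receptor list had a median level of 25.31 CPM, and from 20 to 100 CPM 12.83% of all genes were lower and 31.11% higher.

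Of 38 interferon response genes, 18 fell and 1, Tap1, rose (median log2 change -0.70). Their median level was 39.08 CPM, and from 20 to 100 CPM 12.83% of all genes were lower. Both MPP2 libraries were below all CD48-negative libraries for 24 of the 38, against 26.1% of all genes. No gene of the list rose when any 1 Sham library was left out, with RLE or 20 CPM scaling, with either other low-count filter, with HSC and MPP1 merged, or with DESeq2. Iigp1, an interferon-induced GTPase, read 114 and 113 CPM in HSC, 90.9 and 79.9 in MPP1, and 15.8 and 23.3 in MPP2. Both MPP2 libraries were far below the other 4 (log2 -2.34 ± 0.21, adjusted p = 2.54e-08). Ifi44, an interferon-induced protein, was at 10.6 and 11.8 CPM in MPP2 against 49.99 to 85 in the CD48-negative libraries (log2 -2.55 ± 0.28, adjusted p = 2.78e-07), Irf1, an interferon response factor, at 24.6 and 40.98 CPM in MPP2 against 88.3 to 101 in the CD48-negative libraries (log2 -1.51 ± 0.20, adjusted p = 2.63e-06), and Gbp2, a guanylate-binding protein with close relatives, at 33.3 and 46.6 CPM in MPP2 against 93.5 to 129.8 in the CD48-negative libraries (log2 -1.46 ± 0.20, adjusted p = 2.93e-06). Irf7, another interferon response factor, did not pass (log2 -0.69 ± 0.31, adjusted p = 0.12). Without MPP2 sample 2_3 12 fell, and without MPP2 sample 4 11 fell.

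Interferon response promoters are known for the interferon-stimulated response element, searched here by its core, GAAA, any 2 bases and GAAA again, on both strands. It was found for 15 of 29 matched genes of the list (51.72%), against 3.99% of all genes. Below, 3 fallers chosen for holding a match are shown, with matches in capitals.
Ifit3 (chr19:34583379-34583558, plus strand): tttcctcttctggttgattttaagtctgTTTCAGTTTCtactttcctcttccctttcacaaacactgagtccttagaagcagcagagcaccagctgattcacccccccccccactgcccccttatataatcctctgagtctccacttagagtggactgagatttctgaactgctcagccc
Gbp2 (chr3:142620513-142620692, plus strand): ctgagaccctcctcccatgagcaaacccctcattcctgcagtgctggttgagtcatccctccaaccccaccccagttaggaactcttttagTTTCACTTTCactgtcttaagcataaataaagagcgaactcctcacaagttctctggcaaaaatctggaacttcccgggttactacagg
Ifit1 (chr19:34640739-34640918, plus strand): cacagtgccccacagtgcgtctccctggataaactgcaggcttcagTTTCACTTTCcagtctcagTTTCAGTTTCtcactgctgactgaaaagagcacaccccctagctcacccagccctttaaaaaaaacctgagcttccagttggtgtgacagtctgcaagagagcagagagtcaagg

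Of 11 MHC class II genes, which serve antigen presentation, 6 fell, 0 rose and 5 did not pass (median -1.16; 1 rose without HSC sample 4), and H2-Ob was the 1 of the 11 with a change above 0 (log2 0.98). The class II list had a median level of 23.98 CPM, and from 20 to 100 CPM 12.83% of all genes were lower. H2-Aa, the class II alpha chain (mm9 chr17:34406276-34424772), read 51.2 and 26.7 CPM in HSC, 21.4 and 15.3 in MPP1, and 1.002 and 0.824 in MPP2. HSC were highest, MPP1 next, and MPP2 near 1 CPM (log2 -4.86 ± 0.40, adjusted p = 9.96e-09). Ciita, the class II transactivator, was at 1.41 and 1.61 CPM in MPP2 against 8.24 to 12.6 in the CD48-negative libraries (log2 -2.77 ± 0.49, adjusted p = 8.78e-05), and Cd74, the invariant chain, at 3.12 and 5.24 CPM in MPP2 against 28.6 to 91.95 in the CD48-negative libraries (log2 -3.64 ± 0.57, adjusted p = 0.000169). Class II genes are highly expressed by B cells, whose markers summed to less in MPP2 as given above, with 1 of 11 falling, and their part in the result was not tested. The H2-Aa promoter holds a CCAAT match, in capitals. Over the longer window 8 of 8 matched class II genes had a match, against 41.06% of all genes.
H2-Aa (chr17:34287794-34287973, minus strand): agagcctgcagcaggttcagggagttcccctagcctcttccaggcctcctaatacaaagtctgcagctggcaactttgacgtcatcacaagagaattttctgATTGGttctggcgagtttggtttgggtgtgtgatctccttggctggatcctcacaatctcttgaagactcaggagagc

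Of 31 immediate early and dissociation stress genes, 11 fell and 2 rose. Their median level was 8.49 CPM, and from 5 to 20 CPM 19.15% of all genes were lower and 9.56% higher. Egr1, an early growth response factor, was at 2.12 and 3.93 CPM in MPP2 against 8.24 to 23.7 in the CD48-negative libraries (log2 -2.33 ± 0.54, adjusted p = 0.00211), Jund, an AP-1 factor, at 18.3 and 25.1 CPM in MPP2 against 36.1 to 47.8 in the CD48-negative libraries (log2 -0.90 ± 0.20, adjusted p = 0.00102), and Fos overlapped (log2 -0.51 ± 0.98, adjusted p = 0.756). Hspa1a, a heat shock protein with a near-identical neighbour, rose, at 49.4 and 22.3 CPM in MPP2 against 2.88 to 8.73 in the CD48-negative libraries (log2 2.92 ± 0.68, adjusted p = 0.00335). Without MPP2 sample 2_3, 0 fell and 0 rose, and 6 fell without MPP2 sample 4, 7 without HSC sample 4 or MPP1 sample 2_3, and 1 rose without MPP1 sample 4.

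MPP1 shares CD34 with MPP2 and lack of CD48 with HSC. Against HSC alone, 4565 genes passed (21.3%), 2914 higher in MPP2 (13.6%) and 1651 lower (7.69%), and against MPP1 alone 3189 (14.9%), 1949 higher (9.08%) and 1240 lower (5.78%). These comparisons share the MPP2 libraries. Between MPP1 and HSC, only Clspn passed with edgeR (0.00466%), with 995 genes at an unadjusted p under 0.05 and 107 called by DESeq2. Across genes of at least 20 CPM, the correlation of libraries was 0.940 to 0.952 between HSC and MPP1, 0.690 to 0.795 between HSC and MPP2, and 0.798 to 0.880 between MPP1 and MPP2, a description over genes of one data set.

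The place of MPP1 was set out by list, from differences that share the MPP1 libraries. For mitosis genes the median log2 difference was 1.53 from HSC to MPP1 and 1.55 from MPP1 to MPP2, and for replication genes 0.90 and 1.02. For stem cell genes it was -0.33 and -1.65, and for erythroid genes 0.28 and 1.58. Fitted on the Sham libraries alone, with 3 residual degrees of freedom, 193 of 18857 genes passed between MPP1 and HSC (1.02%), 191 higher in MPP1 (1.01%) and 2 lower (0.0106%). Of the 187 genes in the division and histone lists, 118 passed (63.1%).

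**Figure D4:**
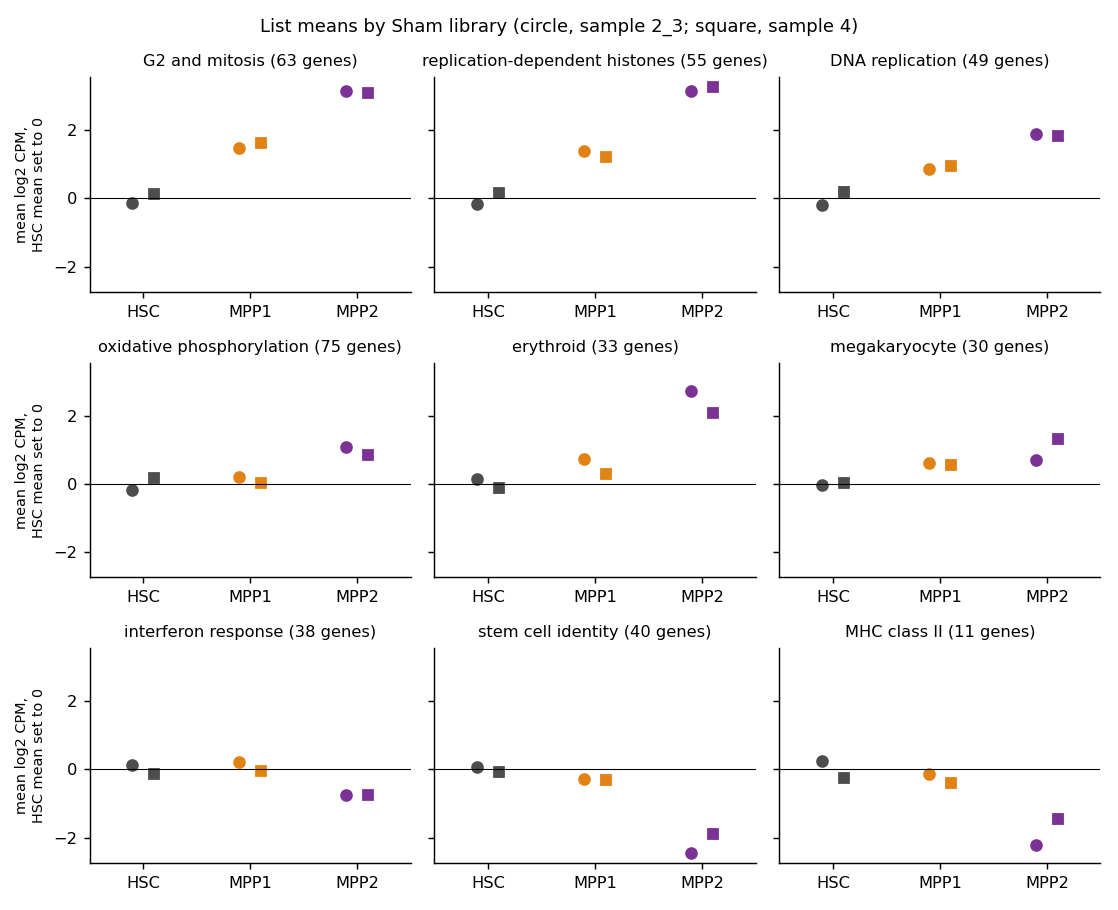
Mean log2 CPM of 9 gene lists in each of the 6 Sham libraries, by cell type, with the mean of the HSC libraries set to 0 (circles, sample 2_3; squares, sample 4). The mitosis, histone and replication lists climb from HSC through MPP1 to MPP2, and the stem cell, interferon and MHC class II lists are lowest in MPP2.

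The same contrast was fitted in the tamoxifen-treated arms, whose libraries are separate from the Sham libraries. It gave 3656 genes in Het (17%), 2027 higher (9.45%) and 1629 lower (7.59%), and 1315 in KO (6.13%), 709 higher (3.3%) and 606 lower (2.82%), each from 3 MPP2 and 6 CD48-negative libraries. Of the 3148 genes higher in Sham, 97.87% were also higher in Het and 97.87% in KO, and 1788 and 680 passed the same way. Of the 1795 lower genes, 98.5% were lower in Het and 97.44% in KO, and 1228 and 558 passed. None of these genes passed in the opposite direction, and among genes that did not pass in Sham, 67.2% and 68.15% had the same sign. The median log2 change of the higher genes was 0.88 in Sham, 0.50 in Het and 0.37 in KO, and of the lower genes -1.48, -1.02 and -0.68. Over the 7595 genes of at least 20 CPM, Pearson's r between the log2 changes was 0.915 for Sham with Het and 0.910 for Sham with KO. Over all 21456 genes tested, low-count genes included, it was only 0.251 with Het and 0.225 with KO. These correlations are descriptions across genes. The called genes were chosen by their Sham values, so the larger Sham medians are no test of a difference.

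**Figure D5:**
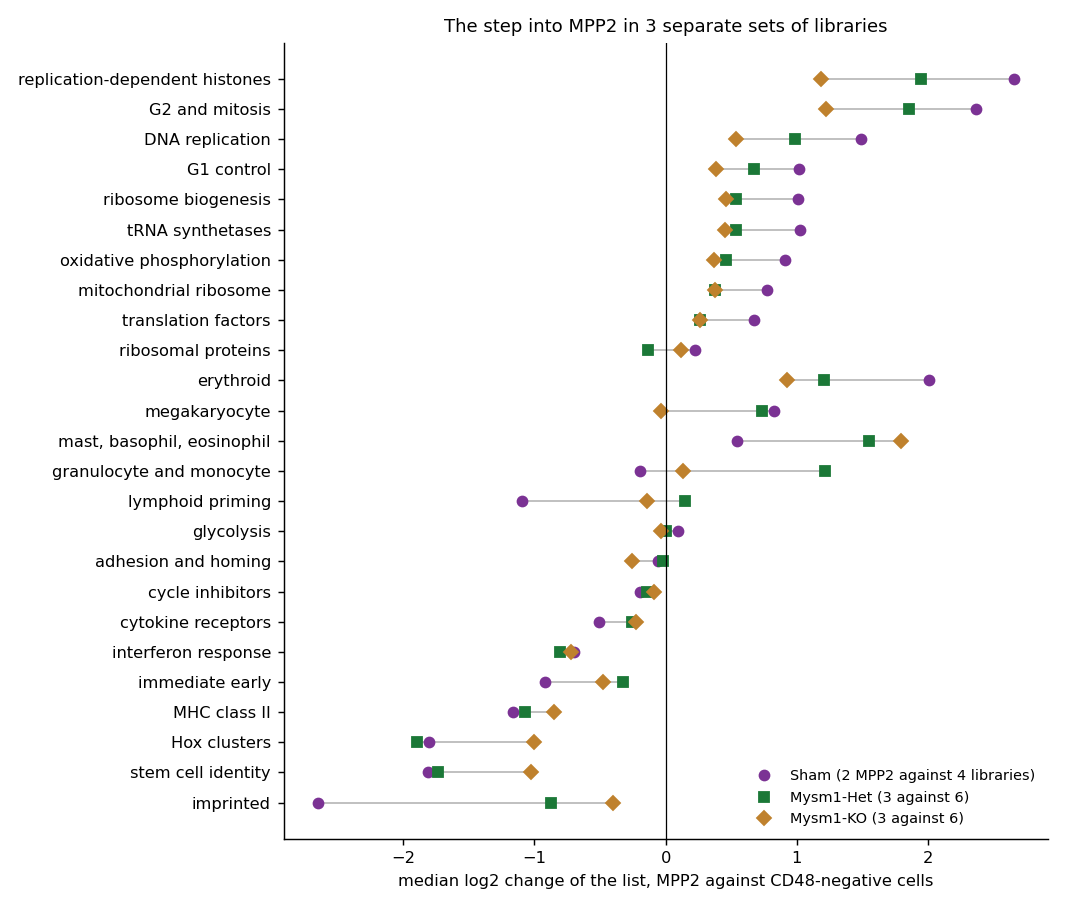
Median log2 change of each gene list, MPP2 against CD48-negative cells (horizontal axis), in Sham (circles, 2 MPP2 against 4 CD48-negative libraries), Het (squares, 3 against 6) and KO (diamonds, 3 against 6). Medians of mitosis genes run from 1.23 in KO to 2.37 in Sham, and those of interferon genes lie between -0.80 and -0.70.

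By list, the median for mitosis genes was 2.37 in Sham, 1.86 in Het and 1.23 in KO, with 63, 63 and 38 of 63 genes higher. For stem cell genes it was -1.81, -1.73 and -1.02, with 31, 30 and 21 of 40 lower. For interferon genes it was -0.70, -0.80 and -0.72, with 18, 23 and 20 of 38 lower. Ribosomal protein genes had medians of 0.22, -0.14 and 0.11. Other lists also differed between the arms. Granulocyte and monocyte medians were -0.19, 1.22 and 0.13, with 1, 10 and 1 genes higher and 5, 0 and 0 lower. Lymphoid medians were -1.09, 0.15 and -0.14, megakaryocyte medians 0.83, 0.74 and -0.03, and imprinted medians -2.65, -0.87 and -0.40.

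The difference between arms was tested directly. Between Sham and Het, 0 genes passed with edgeR (1544 at an unadjusted p under 0.05; DESeq2 called 22). Between Sham and KO, 23 passed (0.107%), 5 with a higher (0.0233%) and 18 with a lower (0.0839%) step in Sham, and without MPP2 Sham sample 2_3 this was 0. H2-Aa had a log2 change of -4.86 in Sham, -3.26 in Het and -1.97 in KO, and Plk2 of -6.64 in Sham, -4.64 in Het and -0.03 in KO. Cenpa had 3.53 in Sham, 1.87 in Het and 1.13 in KO. The corn oil and tamoxifen arms differ in drug as well as in genotype, and the design cannot tell these apart.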

How the data were processed

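Raw read counts per gene, 1 file per library, are the values used. The authors deposited these counts without normalization. The submitters' processing notes name TopHat2 2.0.9 and Bowtie 1.0.0, Trimmomatic 0.33 with FastQC, and featureCounts, with R 3.1.2, edgeR and the mm9 build. Their settings, and the strand used in counting, are not given in the sources used here, so reads of overlapping and antisense genes cannot be told apart. A deposited table of normalized values with 24 columns was not used.

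Groups came from the sample titles. edgeR 4.0.16 (R 4.3.3, limma 3.58.1) fitted its robust quasi-likelihood model to all 24 libraries with 9 group means and 15 residual degrees of freedom, after trimmed-mean scaling and edgeR's low-count filter (minimum count 10), which kept 21456 of 23364 genes. The contrast was MPP2 Sham minus the mean of HSC Sham and MPP1 Sham, with Benjamini-Hochberg adjustment over all genes and a threshold of 0.05. Standard errors were derived from the log2 change and its F statistic and are approximate. Low counts limit precision: of genes under 1 CPM, 0.5% passed. Named genes were the 10 largest rises and 10 largest falls that passed, did not overlap between groups and had a group mean of 5 CPM or more, predicted genes left out. Added to these were the members of every list that passed with the smallest adjusted p (4 at most), the genes with the highest level where none passed, the sort genes and Mysm1, and, for each other comparison, its 5 largest rises and falls. The comparison and the gene lists were chosen with earlier results of these data known. Alternatives were other scalings and filters, DESeq2 1.42.0, limma-trend, a replicate block, the Sham libraries alone and leaving out each library. The scripts were tested on simulated data. Gene positions are from GENCODE M1 on mm9, and promoter sequences from RefSeq on GRCm38.p6. A few members of the gene lists are counted but not reported here by name.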

Additional observations from a re-analysis of the deposited data

Results flagged for a closer look

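Among the genes named, 8 had a step from CD48-negative cells to MPP2 that differed between Sham and KO by edgeR's test of the difference itself. The difference of log2 changes, Sham minus KO, was -6.61 for Plk2 (adjusted p = 0.0292), -4.68 for Ndnf (adjusted p = 0.021), -3.36 for Nrk (adjusted p = 0.021), -2.89 for H2-Aa (adjusted p = 0.00517), -2.47 for Gata3 (adjusted p = 0.0292) and -2.32 for Pde1b (adjusted p = 0.0283). In these 6 genes the fall at MPP2 was larger in Sham. For Cenpa it was 2.40 (adjusted p = 0.0397) and for Taldo1, an enzyme of the pentose phosphate pathway, 0.96 (adjusted p = 0.0356), a larger rise in Sham. Without MPP2 Sham sample 2_3, 0 genes passed this test.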

How the results depend on the processing

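Across scalings, filters, tools and the Sham libraries alone, 4531 to 6631 genes passed between MPP2 and CD48-negative Sham cells, and 2544 also changed at least 2-fold. Leaving out 1 Sham library at a time gave 2240 to 4677 genes, the lowest without MPP2 sample 2_3. The same gave 2389 to 3809 against HSC (2389 without MPP2 sample 2_3, 2858 without HSC sample 2_3) and 651 to 2590 against MPP1 (651 without MPP2 sample 2_3, 1240 and 1632 without MPP1 samples 4 and 2_3). The Sham libraries alone gave 5180 genes against MPP1, and 4988 with a replicate block. No named gene of the 144 that passed reversed under any setting, 112 still passed without MPP2 sample 2_3, and 134 to 139 did without each other Sham library.

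MPP1 against HSC moved most: 5 genes with RLE scaling, 6 with scaling on genes of at least 20 CPM, 12 without a filter, 11 with a filter of 1 CPM, 107 with DESeq2, 12 with limma-trend, 27 without the 2 libraries with few detected genes, 0 without the MPP2 Het library rich in granulocyte genes, 193 in the Sham libraries alone and 0 to 3 leaving out 1 library. In KO the step gave 2226 genes with DESeq2, 2083 without the 2 few-gene libraries and 316 to 1885 leaving out 1 library (316 without MPP2 KO 1, 447 without MPP2 KO 4, 699 without MPP1 KO 4, 809 without HSC KO 4 or MPP1 KO 2_3); in Het leaving out 1 gave 2446 to 3992. Sham against KO gave 43 genes without a filter, 15 with 1 CPM, 373 with DESeq2, 66 without that MPP2 Het library and 0 to 116 leaving out 1 library: 0, 2, 4 and 1 without the Sham libraries MPP2 2_3, HSC 2_3, MPP1 2_3 and MPP1 4, 116 and 82 without the Sham libraries MPP2 4 and HSC 4, 3, 4 and 38 without MPP2 KO 1, 2_3 and 4, 6 and 13 without MPP1 KO 1 and 2_3, and 12 and 13 without HSC KO 2_3 and 4. Sham against Het gave 22 with DESeq2 and 0 to 2. The causes were not tested.

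Samples share the labels 2_3 and 4, but nothing says that equal labels mark shared mice, and same-labelled deviations correlated at -0.081 to 0.143. With a replicate block 5390 genes passed in the main comparison, 142 between MPP1 and HSC (214 in the Sham libraries alone), 2085 in KO and 393 between Sham and KO. The median of 17 of 27 lists lay above that of all genes (16 to 18 across settings).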
